A study of Mus musculus with 10 samples.

Results

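The S100 genes encode small calcium-binding proteins, each with a pair of EF-hand loops, that act inside cells as calcium sensors or carriers and, for some members, outside cells as signals. 10 of them were followed here in mouse jejunum: S100a4, S100a6, S100a8, S100a9, S100a10, S100a11, S100a13, S100a14, S100b and S100g. They were taken by symbol, as 10 of the 24062 gene symbols in the count files and as 10 of the 17 S100 genes there. S100b was put in the list because of its low expression in the transgenic mice, so its difference between the groups chose it and is described here without a test. The other 9 were chosen by family name, with earlier results of these data known.

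The study asked what IL-23 does to the newborn intestine. Here 5 jejunum libraries from KSR23 mice were compared with 5 from wild-type (WT) mice, all of the C57BL/6 strain at postnatal day 5. KSR23 mice (labelled genotype KSR23+) carry R23, a cassette for both IL-23 subunits placed in the ROSA26 locus behind a floxed STOP signal, together with a cre gene driven by the human K14 promoter, which is active in keratinocytes. Cre is thus directed to keratinocytes rather than to the jejunum. The WT mice were littermates. The labels do not say whether each library came from 1 mouse, so the p-values measure the spread between these libraries.

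Levels are given as CPM, the count of a gene scaled to a fixed library total, after correction of that total by trimmed mean of M-values (TMM) factors for differences in RNA composition. The libraries held 25477722 to 32030950 counts in WT mice and 31195111 to 60948534 in KSR23 mice, so that 3 counts, taken as the lowest level that can be told from 0, corresponded to 0.0427 to 0.119 CPM on this scale. The summed level of the 9 epithelial markers, Krt8, Vil1 and Fabp2 among them, was high in every library. It was 9667 to 16867 CPM in WT and 7112 to 12670 CPM in KSR23 mice. Per kilobase of exon their WT means ranged from 9.45 CPM (Cdx2) to 10326 CPM (Fabp2). Replicates 4 and 5 were the highest or lowest library of their group in only 8.74 to 14.7% of 9766 well expressed genes, against 48.9 to 68.1% for replicates 1 to 3. Such libraries may not be independent of the others, and the SDs and p-values from all 5 replicates would then be too small. This was not tested, and each call was also checked on replicates 1 to 3 alone. A gene was called different when its adjusted p in edgeR's likelihood ratio test was under 0.05, and the adjusted p of edgeR's quasi-likelihood F test, which allows for more uncertainty in the spread, is given beside it. By these tests 18.5 and 15.4% of all 17632 genes tested were called, and with replicates 1 to 3 alone 3.36 and 0.812% of 17243 genes.

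S100 proteins mostly work as dimers that change shape when calcium binds and then grip a partner protein. In the intestine they are known for 4 roles: carrying calcium across absorptive cells (S100g), marking glia of the enteric nervous system (S100b), holding annexins at membranes (S100a10, S100a11, S100a6), and filling the cytoplasm of neutrophils (S100a8 and S100a9, which together form calprotectin). In the mouse genome (mm10) 14 of the 17 S100 genes, 8 of the 10 listed, lie on chromosome 3 within 3.05 Mb, from 90511034 to 93564643. S100b lies apart on chromosome 10 (76253853 to 76261159, plus strand) and S100g on chromosome X (162961992 to 162964599, minus strand). These are the 2 members whose expression differed most between the groups, and both were lower in KSR23 mice. Because S100b was put in the list for its fall, no link between position and difference can be drawn from this.

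The 250 bases upstream of their RefSeq start sites (GRCm38.p6, the build named mm10) are printed 5′ to 3′ on the strand of each gene, because S100g and S100b carried the largest differences and their start regions share little. Capitals mark matches, on either strand, to any of 5 short motifs that were searched. TTCNNNGAA is the site of the STAT factors that act below many cytokine receptors, and TTTATG is the core bound by the intestinal homeobox factors of the CDX family. TATAAA is the TATA box of the basal transcription machinery, AGGTCA is the half-site of nuclear receptors such as that for vitamin D, and ACAAAG is the core bound by SOX and TCF factors. No matches overlapped in these windows. The first window is chrX:162964600-162964849, minus strand, and the second is chr10:76253586-76253835, plus strand.
S100g: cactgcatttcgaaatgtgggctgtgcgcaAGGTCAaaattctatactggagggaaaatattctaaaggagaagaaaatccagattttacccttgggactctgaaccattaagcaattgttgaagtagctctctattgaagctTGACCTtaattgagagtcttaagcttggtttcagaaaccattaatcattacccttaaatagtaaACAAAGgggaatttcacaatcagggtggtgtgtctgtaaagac
S100b: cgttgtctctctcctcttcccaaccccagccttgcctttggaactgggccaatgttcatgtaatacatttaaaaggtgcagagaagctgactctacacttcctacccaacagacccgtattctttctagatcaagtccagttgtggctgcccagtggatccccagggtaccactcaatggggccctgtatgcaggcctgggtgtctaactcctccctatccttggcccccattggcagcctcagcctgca
The S100g window held AGGTCA at 220 bases (as printed) and at 107 bases (other strand) upstream of the start, and ACAAAG at 43 bases. Of 32817 windows of the same length, 14.03% held AGGTCA and 16.5% held ACAAAG. None of the 5 motifs was found in the S100b window. The remaining shares were 7.01% for TTCNNNGAA, 10.8% for TTTATG and 12.4% for TATAAA. The S100g window was AT-rich, with a GC content of 38.4%, and 9.06% of windows had a lower one, whereas that of S100b was 53.6% GC (median of all windows 52.4%). These matches describe the letters only. A window was at hand for 8 of the 10 members.

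S100g encodes calbindin-D9k, the cytosolic carrier that moves calcium across absorptive enterocytes and a textbook target of vitamin D. Its level was 97.5, 209, 189, 161 and 119 CPM in the WT group and 3.17, 7.35, 9.38, 4.68 and 8.75 CPM in the KSR23 group, each listed from replicate 1 to 5. The lowest WT library was far above the highest KSR23 library, and the spread within each group was small beside this gap. The mean fell from 155 ± 46.6 to 6.67 ± 2.66 CPM (SD, n = 5), which is 23.3-fold lower. On the log2 scale this was -4.54 ± 0.36 (SE), with adjusted p = 9.00e-26 (likelihood ratio) and 1.66e-05 (quasi-likelihood); adjusted p-values are given in this order throughout. Of the 9 members that could be tested, S100g was the only one still called with replicates 1 to 3 alone (log2 fold change -4.61, adjusted p = 8.44e-09 and 0.0159). With Y-linked counts as a covariate in the model its log2 fold change was -5.34 (adjusted p = 1.38e-28, likelihood ratio test). In whole tissue, fewer cells of a type and less RNA per cell cannot be told apart.

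No other listed gene of intestinal calcium transport and vitamin D response that could be tested was called lower. Some were too low to show a fall, such as Calb1 and Cyp27b1 at WT means of 0.0922 and 0.0385 CPM. Of 13 such genes 12 could be tested, and 2 were higher in KSR23 mice and none lower. By the same likelihood ratio test 9.73% of all genes tested were called higher and 8.76% lower. The median log2 fold change of the 12 was 0.25 (0.24 without Casr, which was at 0 in every WT library) against 0.03 over all genes. Vdr, the vitamin D receptor, rose from 16.2 ± 4.52 to 50.0 ± 12.6 CPM (log2 fold change 1.63 ± 0.31, adjusted p = 1.38e-05 and 0.0019). Cldn12, a claudin of tight junctions linked to calcium passage, rose from 32.5 ± 8.45 to 104 ± 27.1 CPM (1.68 ± 0.30, adjusted p = 2.92e-06 and 0.00144). With replicates 1 to 3 alone Vdr passed neither test (adjusted p = 0.11 and 0.206), and Cldn12 passed only the likelihood ratio test (adjusted p = 0.0380 and 0.154). Trpv6, the apical calcium channel, was low at 0.391 ± 0.275 and 0.254 ± 0.209 CPM, and its log2 fold change of -0.66 did not pass (adjusted p = 0.650). Atp2b1, the calcium pump of the basolateral membrane, stood at 95.4 ± 29.6 and 87.5 ± 29.5 CPM (-0.12, adjusted p = 0.843). Cyp24a1, the vitamin D-degrading enzyme, had 0 counts in WT and at most 3 in any KSR23 library, and could not be tested.

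S100b is the calcium-binding protein of astrocytes and enteric glia, secreted in part and able to bind the receptor for advanced glycation end products (Ager). S100b counts were 1153, 1898, 1551, 1628 and 977 in the WT libraries, numbered 1 to 5, and 40, 20, 4, 38 and 33 in the KSR23 libraries. In CPM these were 35.7, 67.1, 56.9, 46.9 and 36.7 against 0.569, 0.645, 0.159, 0.673 and 0.932. Every KSR23 library was thus far below every WT library but still above the level of 3 counts. The mean was 48.7 ± 13.4 CPM in WT and 0.595 ± 0.280 CPM in KSR23 mice, 81.7-fold lower (log2 fold change -6.33 ± 0.38). Since this difference put S100b in the list, no p is given.

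Other glial genes did not follow S100b as a group. Of the 8 enteric glia markers tested here, 1 was higher and 1 lower in KSR23 mice (9.73 and 8.76% of all genes tested), and the median log2 fold change was 0.55. Their summed level was 84.8 to 121 CPM in WT and 142 to 169 CPM in KSR23 mice, higher in the transgenic group without overlap. In KSR23 mice most of that sum came from Erbb3, a neuregulin receptor that epithelial cells also make, which rose from 40.0 ± 7.45 to 108 ± 11 CPM (1.43 ± 0.25, adjusted p = 1.22e-06 and 0.000603). Entpd2, the next largest part, stood at 41.6 ± 16.5 and 40.5 ± 13.7 CPM, so the higher KSR23 sum rested on Erbb3. The marker that fell was Fabp7, a fatty acid-binding protein of glia, from 15.1 ± 2.94 to 4.55 ± 1.71 CPM (-1.73 ± 0.32, adjusted p = 6.35e-06 and 0.00169). With replicates 1 to 3 alone neither passed, with adjusted p = 0.0746 and 0.164 for Erbb3 and 0.129 and 0.224 for Fabp7. Defining glial genes did not pass the test. Sox10, the glial transcription factor, stood at 0.507 ± 0.199 and 0.844 ± 0.918 CPM (adjusted p = 0.529), and Gfap, the glial filament protein, at 0.174 ± 0.117 and 0.656 ± 0.424 CPM (adjusted p = 0.0789). Per kilobase of exon, WT mice held 32.8 CPM of S100b and 12.1 CPM of Fabp7.

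Some genes listed as markers of pancreatic acinar cells moved in the same direction as S100b and S100g. Of the 8 listed, 5 could be tested and all 5 were lower in KSR23 mice (4 by the quasi-likelihood test, Cpa1 being the exception), and the summed level of the 8 was 99.5 to 206 CPM in WT and 5.90 to 15.6 CPM in KSR23 mice. Nearly all of that level came from the digestive enzyme genes Ctrb1, at 82.2 ± 7.73 and 0.269 ± 0.282 CPM, and Cela1, at 70.6 ± 35.7 and 8.85 ± 4.18 CPM. The other acinar genes were at or near 0 also in WT mice. Ptf1a, the acinar transcription factor, had 0 counts in all 10 libraries, Pnlip and Amy2b had at most 3 in any library, and the WT means of Sycn, Cpa1 and Cela2a were 0.382, 0.803 and 0.974 CPM. Among adipocyte markers, 1 of 4 tested was lower (Cidec, -0.82, adjusted p = 0.00586 and 0.0133), the median log2 fold change of the 4 was 0.34, and Adipoq, Lep and Retn had 0 counts in all 10 libraries. Enteric neuron markers gave 1 higher (Ret, 0.94) and 1 lower (Stmn2, -0.74) of 10, with a median of -0.36. By the quasi-likelihood test 2 were lower, the other being Uchl1 (-0.65, adjusted p = 0.0404), which is named after its values were seen. With replicates 1 to 3 alone 3 acinar markers were still called lower by the likelihood ratio test. No adipocyte or enteric neuron marker was called there.

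**Figure D1:**
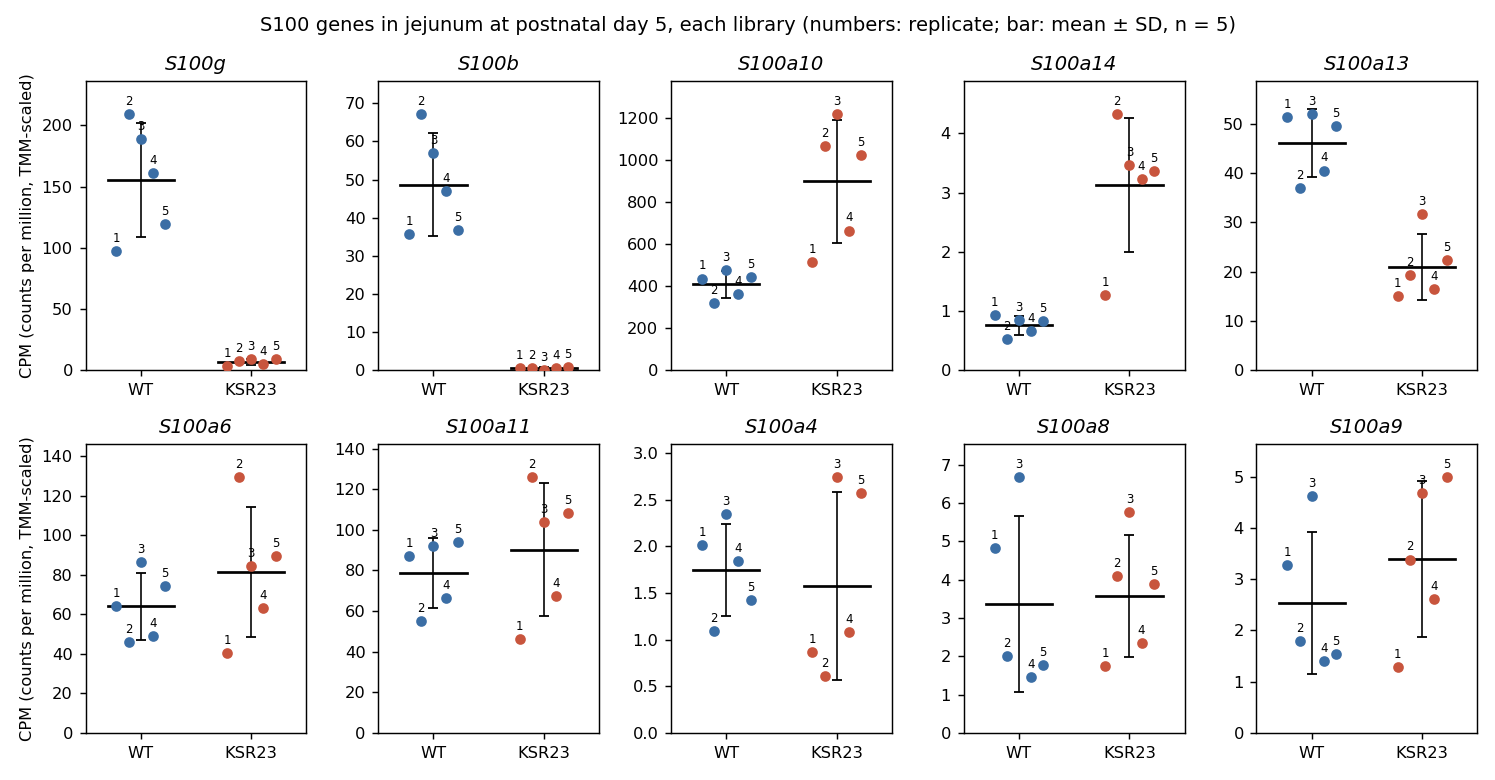
Each panel plots the CPM of 1 S100 gene in every library of WT (blue) and KSR23 (red) mice, with replicate numbers beside the points, the horizontal bar at the mean and the vertical bar spanning 1 SD each way (n = 5); each axis starts at 0. S100g, S100b and S100a13 lie lower in all KSR23 libraries, S100a10 and S100a14 lie higher, and the lower row of 5 genes overlaps between the groups.

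S100a10, also named p11, is the light chain that joins annexin A2 molecules into a tetramer at the plasma membrane and, unlike its relatives, holds its active shape without calcium. Its level was 437, 319, 479, 362 and 444 CPM in WT and 516, 1067, 1219, 665 and 1026 CPM in KSR23 replicates 1 to 5. All KSR23 libraries were above all WT libraries, although KSR23 replicates 1 and 4 stood close to them. The mean rose 2.20-fold, from 408 ± 65.5 to 899 ± 295 CPM (log2 fold change 1.14 ± 0.29, adjusted p = 0.00144 and 0.0118). The groups also did not overlap in replicates 1 to 3 alone, where the log2 fold change was 1.22 but the test was not passed (adjusted p = 0.235 and 0.334). The call was also lost when Y-linked counts entered the model as a covariate (0.53, adjusted p = 0.203). KSR23 replicates 1 and 4 held 9035 and 4330 Y-linked counts and KSR23 replicates 2, 3 and 5 held 9, 1 and 1, while the WT libraries held 492 (replicate 3) to 6347. KSR23 replicate 4 and WT replicates 3 and 5 also held 691, 919 and 167 counts of Xist, the RNA of the silenced X chromosome, so that these libraries carried RNA marks of both sexes. The labels give neither the sex of the pups nor whether pups were pooled, and the part of sex in the S100a10 difference was not tested beyond this covariate.

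S100a11, or calgizzarin, binds annexin A1 in a similar way, and S100a6, or calcyclin, binds annexin A11 and the ubiquitin ligase adaptors Cacybp and Sugt1. S100a11 was at 54.9 to 93.9 CPM in WT (median 87.1) and at 46.2 to 126 CPM in KSR23 mice (median 104). S100a6 was at 46.0 to 86.4 CPM in WT (median 64.5) and at 40.7 to 130 CPM in KSR23 mice (median 84.5). For both genes the KSR23 libraries spread beyond the WT libraries on either side. The log2 fold changes were 0.20 for S100a11 (95% interval -0.44 to 0.83, adjusted p = 0.744) and 0.35 for S100a6 (-0.32 to 1.02, adjusted p = 0.537), so that neither passed the test. As many as 37.8% of the 75-base stretches of S100a11 also occur in the pseudogenes Gm12854 and Gm7665, and reads from these stretches could not be placed uniquely.

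Of 14 genes for partners and receptors of the S100 proteins, 5 were higher in KSR23 mice (4 by the quasi-likelihood test) and none lower, where 9.73% of all genes tested were called higher and 8.76% lower. The median log2 fold change of the 14 was 0.51, and 6 of them had a negative estimate that did not pass the test. Ahnak, the giant scaffold protein that docks on the S100a10 and annexin A2 complex, rose from 29.6 ± 3.01 to 81.5 ± 20.5 CPM (1.46 ± 0.27, adjusted p = 4.31e-06 and 0.00103). Anxa2 itself, at 908 ± 75.6 and 1486 ± 685 CPM, did not pass the test (0.71 ± 0.35, adjusted p = 0.153). Anxa11, the partner of S100a6, rose by a log2 fold change of 1.04 (adjusted p = 0.0218 and 0.0389), and Anxa1, the partner of S100a11, did not pass (-0.60, adjusted p = 0.216). Cd36, a fatty acid transporter that also binds the S100a8 and S100a9 complex, rose from 554 ± 91.8 to 1179 ± 573 CPM (1.09, adjusted p = 0.00956 and 0.0316). Tlr4, the lipopolysaccharide receptor that S100a8 can engage, passed only the likelihood ratio test (0.91, adjusted p = 0.0491 and 0.0618). Ager, the receptor of S100b, was low at 0.841 ± 0.381 and 0.421 ± 0.160 CPM and did not pass (-0.99, adjusted p = 0.134). None of the 14 was called with replicates 1 to 3 alone.

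S100a13 aids the release of FGF1, a growth factor without a signal peptide, from cells. It was at 51.4, 36.9, 51.9, 40.5 and 49.4 CPM in WT and at 14.9, 19.2, 31.7, 16.4 and 22.3 CPM in KSR23 replicates 1 to 5. The highest KSR23 library, replicate 3, stayed below the lowest WT library, replicate 2. The mean fell from 46.0 ± 6.87 to 20.9 ± 6.66 CPM (log2 fold change -1.14 ± 0.30, adjusted p = 0.00198 and 0.00852). With replicates 1 to 3 alone the log2 fold change was -1.05 and did not pass (adjusted p = 0.404 and 0.398). Its cargo Fgf1 moved the other way, from 8.65 ± 2.84 to 20.7 ± 8.94 CPM (1.26 ± 0.38, adjusted p = 0.00997 and 0.0286), and also did not pass with replicates 1 to 3 alone (adjusted p = 0.377 and 0.425).

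S100a13 starts head to head with S100a1, an S100 gene outside the list that is best known from heart muscle. S100a1 runs from 90514392 down to 90511034 on the minus strand of chromosome 3, and S100a13 from 90514435 up to 90524581 on the plus strand. Only 42 bases separate the genes as annotated by GENCODE, at chr3:90514393-90514434, shown on the plus strand because both genes begin at its ends there and both fell. RefSeq places the start site of S100a1 at 90514330, inside the GENCODE gene and not at the end of this stretch.
Between S100a1 and S100a13: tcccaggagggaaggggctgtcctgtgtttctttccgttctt
S100a1 was at 1115, 358, 981, 673 and 1060 CPM in WT and at 155, 95.6, 257, 130 and 161 CPM in KSR23 replicates 1 to 5. Here too no library of the groups overlapped, and the log2 fold change was -2.39 ± 0.36 (adjusted p = 1.70e-08 and 0.000982; with replicates 1 to 3 alone 0.0170 and 0.163). S100a1 counts per S100a13 count ranged from 9.72 to 21.7 in WT and from 4.96 to 10.4 in KSR23 mice. This ratio overlapped between the groups through WT replicate 2 and KSR23 replicate 1 only.

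S100a14 is found mainly in epithelia, and little of it was present in WT jejunum. Its counts were 30, 15, 23, 23 and 22 in WT and 89, 134, 87, 182 and 119 in KSR23 replicates 1 to 5. In CPM these were 0.929, 0.530, 0.844, 0.662 and 0.826 against 1.27, 4.32, 3.46, 3.22 and 3.36. The WT libraries stood close together, and KSR23 replicate 1 stood apart from the rest of its group, near the WT level. The mean rose 4.12-fold, from 0.758 ± 0.160 to 3.13 ± 1.12 CPM (log2 fold change 2.03 ± 0.39, adjusted p = 1.39e-05 and 0.0026). With replicates 1 to 3 alone it was 2.0 and did not pass (adjusted p = 0.0908 and 0.231). Among the epithelial markers 2 of 9 rose, Krt20 (2.22 ± 0.36, adjusted p = 1.27e-07 and 0.00144) and Cdh1 (1.11, adjusted p = 0.0260 and 0.0572), and Fabp2 fell (-1.19, adjusted p = 0.00743 and 0.0371). Of 5 testable keratinocyte markers none rose and 1 fell (Krt10, -1.26), and their summed level was 8.70 to 19.2 CPM in WT and 5.64 to 9.74 CPM in KSR23 mice.

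S100a4 is a protein of fibroblasts and leukocytes that binds nonmuscle myosin (Myh9). Its level was low, at 1.10 to 2.35 CPM in WT (median 1.84) and 0.613 to 2.74 CPM in KSR23 mice (median 1.08), from 31 to 65 and 19 to 91 counts. KSR23 replicates 3 and 5 were above every WT library and the other 3 were below every WT library. Accordingly the log2 fold change was -0.16 (95% interval -1.08 to 0.76, adjusted p = 0.863). Of its 75-base stretches 44.8% also lie in Gm42674, an overlapping read-through transcript of the same locus and strand. Gm42674 is not among the counted gene symbols, so no loss of S100a4 reads can be read from this overlap. Of 8 fibroblast markers 1 was lower (Dcn, -1.10, adjusted p = 0.00315 and 0.0159) and none higher, and of 8 smooth muscle markers 1 was lower (Acta2, -0.77, adjusted p = 0.0351 and 0.0538). With replicates 1 to 3 alone no marker of either list was called by the likelihood ratio test.

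S100a8 and S100a9 form calprotectin, the metal-binding complex that fills neutrophils and is measured in stool as a sign of gut inflammation. S100a8 was at 4.83, 2.02, 6.68, 1.47 and 1.76 CPM in WT and at 1.74, 4.09, 5.76, 2.34 and 3.90 CPM in KSR23 replicates 1 to 5. S100a9 was at 3.28, 1.80, 4.62, 1.41 and 1.54 CPM in WT and at 1.29, 3.39, 4.69, 2.62 and 5.00 CPM in KSR23 replicates 1 to 5. The highest S100a8 level was in WT replicate 3 and the highest S100a9 level in KSR23 replicate 5, and the groups overlapped over most of their range. The 95% interval of the log2 fold change reached from -0.89 to 1.05 for S100a8 and from -0.49 to 1.33 for S100a9, which leaves room for a 2-fold rise in either gene. Neither passed the test with all libraries, with replicates 1 to 3 alone or in any other of the 20 alternatives. From each library about as many S100a9 as S100a8 counts were obtained, at 0.679 to 0.961 per S100a8 count in WT and 0.746 to 1.28 in KSR23 mice.

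Neutrophil markers gave no single direction either. Of 11 tested, 2 were higher and 2 lower in KSR23 mice (1 and 2 by the quasi-likelihood test), with a median log2 fold change of 0.37 (0.22 without Elane). The likelihood ratio test called 9.73% of all genes tested higher and 8.76% lower. Ltf, the lactoferrin of neutrophil granules and secretory epithelia, rose from 1.89 ± 0.397 to 30.5 ± 12.5 CPM (4.01 ± 0.37, adjusted p = 1.46e-19 and 2.90e-05). Elane, neutrophil elastase, had 0 counts in every WT library and 0 to 7 in the KSR23 libraries, a level at which no fold is given. Retnlg, a resistin-like secreted protein, fell from 15.0 ± 1.41 to 2.18 ± 0.958 CPM (-2.78 ± 0.33, adjusted p = 4.38e-13 and 0.000111) and Ngp, a granule protein, from 5.83 ± 1.18 to 1.04 ± 1.30 CPM (-2.51 ± 0.60, adjusted p = 0.00115 and 0.0177). With replicates 1 to 3 alone Ltf and Retnlg still passed both tests. Ngp (adjusted p = 0.281 and 0.416) and Elane (adjusted p = 0.0683 and 0.380) passed neither. The summed neutrophil level was 23.4 to 27.1 CPM in WT and 17.0 to 53.5 CPM in KSR23 mice. Mpo, a defining gene, was at 0.0396 ± 0.0281 and 0.111 ± 0.101 CPM, near the limit of detection. Among 9 macrophage markers Cd14 (1.81) and Itgam (1.01) rose while Cd68 (-1.06) and C1qb (-0.69) fell by the likelihood ratio test, all but Itgam also by the quasi-likelihood test, with summed levels of 779 to 932 CPM in WT and 593 to 855 CPM in KSR23 mice. None of these 9 macrophage markers was called with replicates 1 to 3 alone. The part of these cells in the S100a8 and S100a9 levels was not tested.

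**Figure D2:**
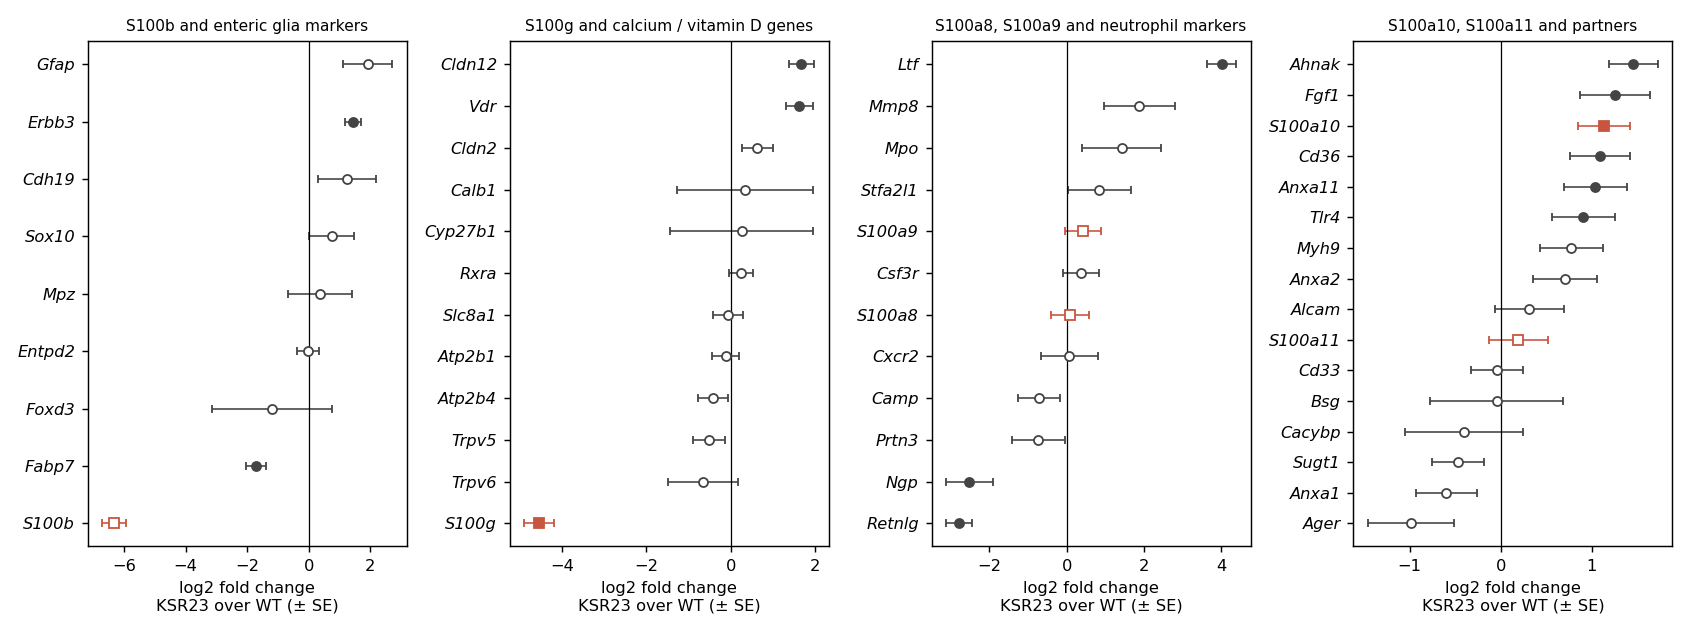
The 4 panels show the log2 fold change of KSR23 over WT mice (± SE, 5 libraries a group) for S100 genes (red squares) among genes of related function (circles); filled symbols passed the likelihood ratio test, and S100b is open because it was not tested. Casr and Elane, with 0 counts in all WT libraries, are not drawn. S100b at -6.33 and S100g at -4.54 lie below every other gene of their panels, whereas S100a8 and S100a9 lie mid-panel, between Ltf above and Retnlg below.

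Over the list, 4 of the 9 members that could be tested were called by both tests, with S100a10 and S100a14 higher and S100a13 and S100g lower in KSR23 mice. Over all genes tested, 9.73% were called higher and 8.76% lower by the likelihood ratio test, and 8.47% higher and 6.91% lower by the quasi-likelihood F test. The list was chosen with results in view, so its count says nothing of the family as such. The groups did not overlap for 5 of the 10 members, S100b among them, and for 14.4% of all genes. Of the other 7 S100 genes in the files, 2 were lower and none higher in KSR23 mice. These were S100a1, described above, and S100z, a little-studied member on chromosome 13, with 11 to 37 counts in WT and 0 to 6 counts in KSR23 libraries (-3.27 ± 0.62, adjusted p = 4.17e-06 and 0.00754, and 0.0534 and 0.253 with replicates 1 to 3 alone). S100a5 had 20 to 45 counts in WT libraries and 5, 17, 4, 3 and 43 counts in KSR23 replicates 1 to 5, and did not pass the test (-1.43, adjusted p = 0.175). S100a16, with 1425 to 3220 counts, had a log2 fold change of 0.12 (adjusted p = 0.835). S100a2, S100a3 and S100a7a had at most 10 counts in any library. Among 6 genes with an S100 domain fused to a longer protein, which belong to skin, Flg2, Hrnr and Rptn had 0 counts in all 10 libraries and none of the 2 that could be tested was called.

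**Figure D3:**
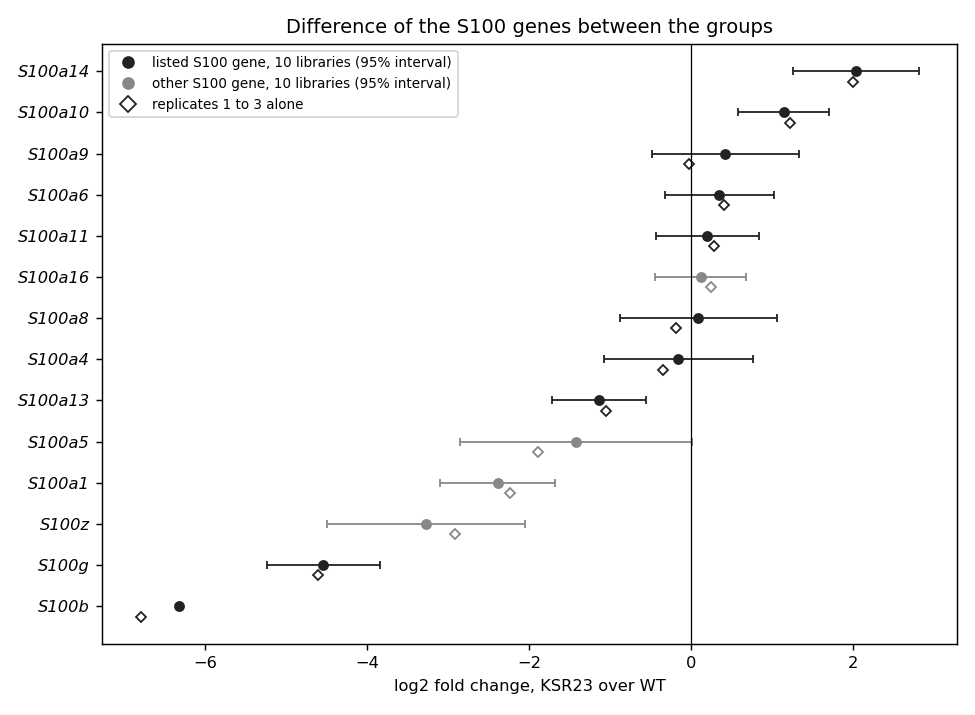
Points give the log2 fold change of KSR23 over WT mice for each S100 gene that reached 0.5 CPM in some library, black for the listed genes and grey for the others, with 95% intervals from 10 libraries; S100b, chosen for this difference, is drawn without an interval. Diamonds give the estimate from replicates 1 to 3 alone, which lies on the same side of 0 as the full estimate for all genes shown except S100a8 and S100a9.

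The make-up of the S100 transcripts was compared per kilobase of exon, so that long and short genes could be set side by side. In WT mice S100a1 came first with 1207 ± 458 CPM per kb, followed by S100a10 (337 ± 54.1), S100g (323 ± 97.0), S100a11 (154 ± 33.7), S100a13 (64.3 ± 9.60), S100a6 (46.9 ± 12.4), S100a16 (39.8 ± 7.02) and S100b (32.8 ± 9.06). S100a10 and S100g overlapped in their ranges, as did each neighbouring pair from S100a13 to S100b, while S100a11 stood apart from its neighbours on both sides. The level, rank and share of S100a11 may be understated here, since 37.8% of its 75-base stretches could not be placed uniquely. Far below, among the members, lay S100a9 (4.85 ± 2.66), S100a8 (4.83 ± 3.31), S100a4 (2.99 ± 0.842) and S100a14 (0.439 ± 0.0925). In KSR23 mice S100a10 came first with 741 ± 243 CPM per kb, above S100a1 (230 ± 86.7), S100a11 (177 ± 63.9), S100a6 (59.6 ± 24.2), S100a16 (43.2 ± 12.0), S100a13 (29.3 ± 9.31) and S100g (13.9 ± 5.55). Of the members, S100a9 (6.51 ± 2.91), S100a8 (5.14 ± 2.29), S100a4 (2.70 ± 1.72), S100a14 (1.81 ± 0.651) and S100b (0.401 ± 0.188) followed, with each overlapping the next in range except for S100b, which lay below all libraries of S100a14. S100a1 and S100a11, S100a11 and S100a6, S100a6 and S100a16, and S100a16 and S100a13 also overlapped, whereas every KSR23 library of S100a10 was above every one of S100a1 and every one of S100a13 above every one of S100g. As a share of all S100 transcripts per kb, S100a10 stood at 15.4 ± 1.38% in WT and 56.0 ± 3.15% in KSR23 mice, and S100a1 at 52.5 ± 11.1 and 18.3 ± 6.45%. S100g made up 15.9 ± 8.34% and 1.03 ± 0.161%, and S100b 1.61 ± 0.847% and 0.0339 ± 0.0170%. The share of S100a11 was 6.96 ± 0.249% and 13.3 ± 2.37%, a difference in share where the level itself did not pass the test.

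**Figure D4:**
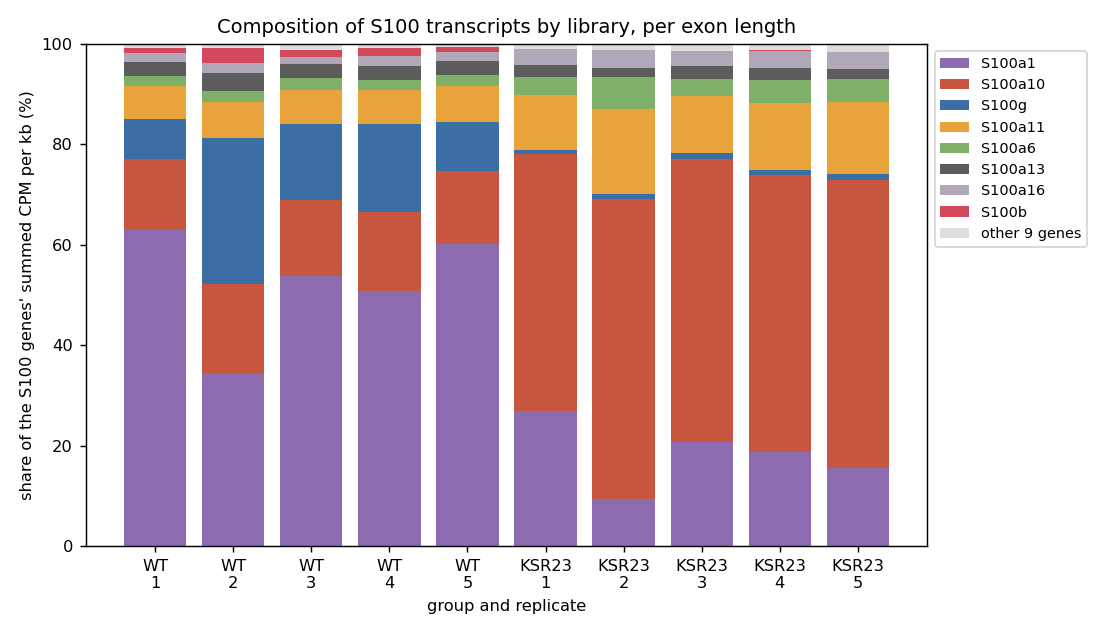
Stacked bars give each S100 gene's share (%) of the summed CPM per kb of exon of all 17 S100 genes, in 1 bar per library. S100a1 is the largest segment in all 5 WT libraries (34.5 to 63.0%) and S100a10 in all 5 KSR23 libraries (51.2 to 59.8%).

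Within the groups the members did not vary independently. KSR23 replicate 1, the deepest library, was the lowest of its group for 8 of the 10 members, the exceptions being S100a4 and S100b. Among the WT libraries, replicate 2 was the lowest for 6 members and replicate 3 the highest for 6. Correlations of log2 CPM after removal of the group means are given as a description over 10 libraries that share scaling and depth. Pearson's r was 0.94 between S100a8 and S100a9, 0.96 between S100a6 and S100a11 and 0.95 between S100a10 and S100a11. S100b and S100g had r = 0.02 over all 10 libraries, with 0.97 over the 5 WT libraries and -0.29 over the 5 KSR23 libraries. S100b counts per S100g count lay between 0.291 and 0.366 in WT and between 0.0169 and 0.179 in KSR23 mice, a ratio given as a description because S100b was chosen for its fall.

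**Figure D5:**
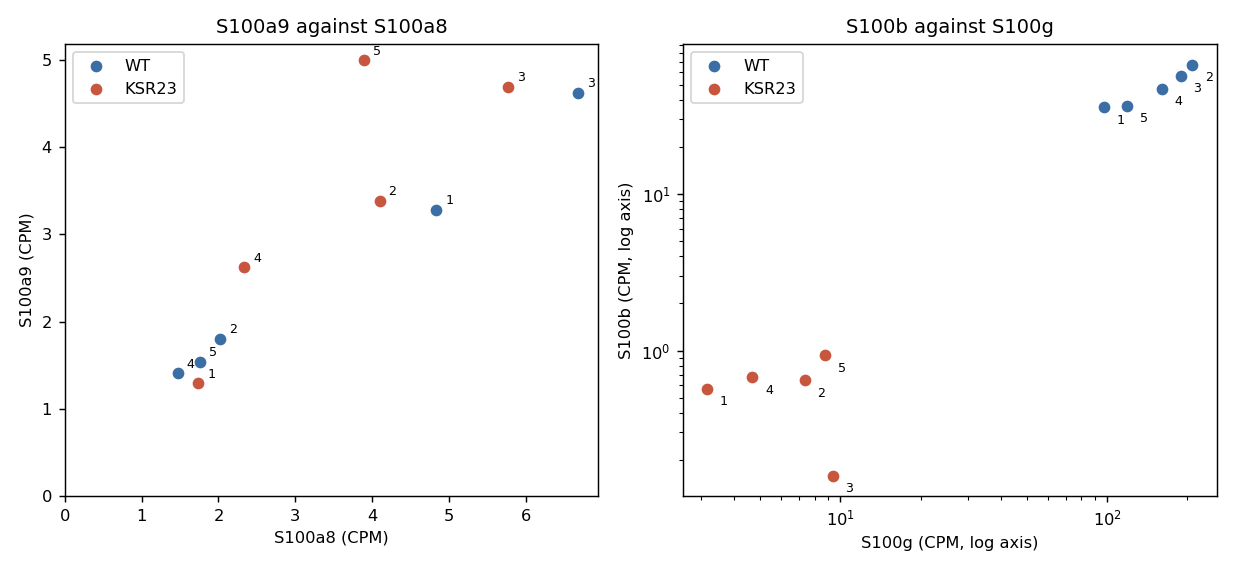
Each point is 1 library, numbered by replicate, with WT in blue and KSR23 in red. On the left the CPM of S100a9 follows that of S100a8 in both groups on linear axes from 0; on the right, on log axes, S100b follows S100g in the WT libraries, and the KSR23 libraries form a separate cloud at 3.17 to 9.38 CPM of S100g and 0.159 to 0.932 CPM of S100b.

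Other genes whose expression was most like that of 4 members within the groups were sought among genes with a mean of 5 CPM or more. For S100g these were Exoc3l4, Ttyh1, Errfi1, 4930581F22Rik and Klf4 (r = 0.96 to 0.92), and for S100b they were Ptbp3, Grk6, Arhgef10l, Pou2f1 and Usp36 (r = 0.94 to 0.91). S100a8 was most like Eml4, Cenpp, Cxcl1, Sppl3 and Tat (r = 0.91 to 0.85) and S100a9 most like Sppl3, Brpf3, Sgpp1, Smad1 and Eml4 (r = 0.89 to 0.87). Eml4 and Sppl3 stood in both of these lists. Most neutrophil markers lay under 5 CPM and were not among the genes compared. With 10 libraries and 9736 or 9737 genes compared, values of this size are a description only.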

How the data were processed

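RNA from jejunum, in 5 WT and 5 KSR23 libraries (groups by the labels' titles), was primed with oligo-dT, amplified by PCR (SMART-Seq v4, Nextera XT) and sequenced as single 75-base reads, without molecular identifiers or strand marks. Per the labels and the study's methods, the authors aligned reads with TopHat2 2.1.0 to mm10 and obtained the deposited raw counts per gene symbol with HTSeq 0.6.1p1 (strict intersection), 1 table per library. The annotation release is not given in the sources used here. Reads that the counter set aside as aligned to several places or to no gene were left out of library sizes and tests. Sense and antisense reads cannot be told apart, and intervals cover the modelled spread or counting error only.

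The counts were fitted in edgeR 4.0.16 (R 4.3.3): TMM factors, a filter that kept any gene reaching 5 counts in some library, the likelihood ratio test as in the study's methods, two-sided, and Benjamini-Hochberg adjustment over all genes. The quasi-likelihood F test, DESeq2 1.42.0, other scalings and filters, single libraries left out, replicates 1 to 3 alone, a replicate block and a Y-linked covariate were alternatives. Log2 CPM used a prior count of 2. Test code was tested on simulated data. The members, the gene lists (other and fused-type S100 genes, partners and receptors, calcium and vitamin D genes, and cell type markers) and the tests were chosen with earlier results of these data known. Named were all members, the listed genes that were called, the defining genes of a list, and for 4 members the 5 genes with the highest within-group correlation. Gene positions are from GENCODE M21, where 94.6% of symbols were found, and sequences from RefSeq (GRCm38.p6). Replicate numbers were not used to pair the libraries in the main fit. 1 listed glial marker is not reported here.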

Additional observations from a re-analysis of the deposited data

Results flagged for a closer look

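In 33 groups of 5 libraries, over the 17 S100 genes, 2 held a library whose gap to the nearest of the others was large beside the range of the group, by Dixon's test, which chance alone gives in about 1 of 20 groups. S100a14 was low in KSR23 replicate 1, at a log2 CPM of 0.40, and its log2 fold change without that library was 2.29. S100a2 was high in the same library, at a log2 CPM of -2.84, which rests on 6 counts where the rest of the group had 0.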

How the results depend on the processing

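Of 180 values for the 9 tested members under the alternatives, 158 kept their direction and their side of the threshold, 7 lost the call and 15 changed sign. S100g was called in all 20 alternatives, with its log2 fold change moving from -4.54 to -5.34 under the Y-linked covariate, while S100a13 and S100a14 were called in 18 and S100a10 in 17. With replicates 1 to 3 alone, 579 genes and 1 of the 9 members were called, and 140 genes and 1 member with the quasi-likelihood F test on these libraries, an alternative chosen after seeing the data; here fewer libraries entered the fit. With single libraries left out, 2370 to 3802 genes were called and 4 to 4 members. The Y-linked covariate left 2595 genes and 3 members. Split by direction, 1716 genes were higher and 1545 lower; with library totals alone as scaling these were 1414 and 1858, and with the Y-linked covariate 1101 and 1494.

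Signs changed for members that were never called, and the cause was not tested. The log2 fold change of S100a8 was -0.00986 with library totals alone, -0.00845 without WT replicate 2, -0.06 without WT replicate 4, -0.08 without WT replicate 5, -0.16 without KSR23 replicate 3, -0.19 with replicates 1 to 3 alone by either test and -0.81 with the Y-linked covariate. That covariate also gave -0.48 for S100a9, -0.29 for S100a6, -0.46 for S100a11 and -0.33 for S100a16. S100a9 was at -0.0245 with replicates 1 to 3 alone and at -0.0239 there by the quasi-likelihood F test. With single libraries left out, S100a4 ranged from -0.45 (without KSR23 replicate 3) to 0.0854 (without KSR23 replicate 2), with 0.04 without KSR23 replicate 1, and S100a2 from -4.01 (without KSR23 replicate 1) to 0.0808 (without WT replicate 1). The Y-linked covariate moved S100a4 further, to -0.96, without a change of sign or a call. S100a5 was called only without KSR23 replicate 5 (-2.46, adjusted p = 0.00398) and with the Y-linked covariate (-3.91, adjusted p = 0.00028), both by the likelihood ratio test.

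The replicate numbers are shared by the groups, and the deviations of same-numbered libraries correlated at -0.74, 0.41, -0.69, 0.36 and 0.49. Without a reference from libraries known to be unpaired, these values cannot decide whether the numbers pair the libraries. The main fit did not pair them. With the replicate number as a block, 2202 genes and 4 members were called. The filter of 5 counts in every library left out S100b, S100z and S100a5. Depth limits S100a14, S100a4, S100z and S100b in KSR23 mice, whose lowest counts were 87, 19, 0 and 4.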
